A study of Rattus norvegicus with 2 samples.

Results

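The genes of cochlear collagens II, IX and XI were described in rat cochlear cells at postnatal day 1 (P1) and postnatal day 7 (P7). The members were the rows of both count matrices whose gene symbol was Col2a1, Col9a1, Col9a2, Col9a3, Col11a1 or Col11a2. These were 6 of the 32623 genes listed, and each symbol occurred once in each library. Their identifiers in the files are ENSRNOG00000058560 for Col2a1, ENSRNOG00000012920 for Col9a1, ENSRNOG00000011502 for Col9a2, ENSRNOG00000009531 for Col9a3, ENSRNOG00000023148 for Col11a1 and ENSRNOG00000000463 for Col11a2.

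Collagen II forms the core of the fibrils of cartilage and of several softer tissues, and its molecule is made of identical chains from Col2a1. Collagen IX is built from the chains of Col9a1, Col9a2 and Col9a3, sits on the fibril surface and links it to other matrix. Collagen XI holds the chains of Col11a1 and Col11a2 with a chain from Col2a1, and it starts fibrils and limits their width. In the cochlea these collagens are known from the spiral ligament, and from the tectorial membrane, the sheet over the hair cells that the epithelium lays down. Mutations in these genes are known causes of hearing loss, among them Stickler syndrome.

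Cells of the cochlear duct of Sprague-Dawley rats were dissociated and sequenced by droplet capture, with 1 library for P1 and another for P7. By the methods of the study P1 was the day of birth, 40 rats were taken for each age and their tissue was pooled. The methods also state that stria vascularis, spiral ligament and spiral ganglion were separated off under microdissection before the cells were freed. Fibrocytes are cells of the spiral ligament, and how much of these tissues remained in the samples was not tested. No treatment, transgene or mutation was named for either age. With 1 library per age no test between the ages was possible, so all intervals below are 95% intervals that cover counting error only, and age and library cannot be told apart.

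The matrices held 14068 barcodes with 114285848 unique molecular identifiers (UMIs, counted RNA molecules) at P1, and 14501 barcodes with 101264868 UMIs at P7. After the quality limits 12779 cells remained at P1 and 12581 at P7. The median cell held 6565 UMIs at P1 and 6878 at P7, and the median mitochondrial share was 6.77% and 8.51%. The libraries shared 60 cell barcodes, and 622 cells at P1 and 775 at P7 were called doublets. Both samples are labelled as cells of the greater epithelial ridge, an epithelium. The markers went against that label for most cells, since the cluster led by epithelial genes (Epcam, Tecta, Oc90 and others) held 270 cells (2.11%) at P1 and 213 cells (1.69%) at P7.

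Cells were clustered without the members and without the marker and pathway genes, which gave 25 clusters (RC0 to RC24). A cluster was named for the marker list that led it, with the ending -like. The fibrocyte-like class, led by the list of Otor, Otos, Coch, Crym, Isyna1 and Car3, held 2996 cells at P1 and 948 at P7. At P1 it was almost wholly RC0 (2987 cells), and at P7 it was mostly RC11 (852 cells) with 96 cells of RC0. Other mesenchyme held 5545 cells at P1, mainly RC2, RC3 and RC12, and 4950 at P7, mainly RC4, RC5 and RC8. Since different clusters carried these classes at the 2 ages, age and subtype cannot be told apart in them. RC7, with 1392 cells at P7 and 7 at P1, was led by both the fibrocyte list and the Sfrp4-Dlx5 mesenchyme list, and it was kept apart. The epithelium-like class was RC15 at both ages. Among markers of cartilage cells, Acan, Matn1, Matn3 and Comp were near 0 in the classes that carried the collagens. Acan, the main cartilage proteoglycan, lay at 0.253 CPM (UMIs of the gene scaled to a class total of 1000000) at P1 and 1.80 CPM at P7 in fibrocyte-like cells, and Matn1, a cartilage matrilin, at 0 and 0.113 CPM. Of the 8 genes of the chondrocyte list, Cnmd, which encodes chondromodulin, was high in fibrocyte-like cells, with 344 of a summed 367 CPM at P1 and 1878 of 1917 CPM at P7. In epithelium-like cells Cnmd lay at 1749 and 1877 CPM and Ucma, another gene of the list, at 117 and 873 CPM.

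RNA freed from broken cells enters all droplets, so macrophage-like cells (RC17, 189 cells at P1 and 178 at P7), which should lack these collagens, were taken as the measure of background. Col9a1 lay at 252 CPM in them at P1 and at 1081 CPM at P7. Col2a1 lay at 56.7 and 172 CPM, Col9a2 at 126 and 521 CPM, and Col9a3 at 33.0 and 40.8 CPM. Col11a1 lay at 109 and 148 CPM and Col11a2 at 33.0 and 143 CPM. In macrophage-like cells the level was thus several times higher at P7 for Col2a1, Col9a1, Col9a2 and Col11a2, but not for Col9a3 or Col11a1. In endothelium-like cells, another class that should lack them, Col9a1 lay at 349 CPM at P1 and 486 CPM at P7, and Col11a1 at 27.9 and 87.0 CPM. In pericyte-like cells Col9a1 lay at 265 and 430 CPM. The background thus differed between classes, and at P7 the macrophage-like level of Col9a1 was the highest of these. Subtracting the macrophage-like level can therefore take away too much, and a level equal to it need not be background alone. No gene was corrected for the macrophage-like level unless stated.

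The windows before the start sites of 3 of the genes are shown because their levels are contrasted below, Col9a1 with Col9a2 between epithelium and mesenchyme, and Col11a1 between the ages in fibrocyte-like cells. The sequences are from RefSeq on build GRCr8, not the build rn6 on which the counts were made, and end at the base before the annotated start. Of the 6 genes, 4 were matched in the promoter table by symbol, and Col2a1 and Col9a3 were not. The Col11a2 window is not shown because it lies within the annotated span of the gene, and it held 3 GC boxes and no SOX core, as did that of Col11a1. Capitals mark ACAAT or its reverse ATTGT, a core motif bound by SOX factors, and GGGCGG or CCGCCC, the GC box, on either strand. The Col9a1 window is chr9:34081114-34081363 on the plus strand, the Col9a2 window chr5:139892548-139892797 on the plus strand and the Col11a1 window chr2:204508886-204509135 on the plus strand.
Col9a1: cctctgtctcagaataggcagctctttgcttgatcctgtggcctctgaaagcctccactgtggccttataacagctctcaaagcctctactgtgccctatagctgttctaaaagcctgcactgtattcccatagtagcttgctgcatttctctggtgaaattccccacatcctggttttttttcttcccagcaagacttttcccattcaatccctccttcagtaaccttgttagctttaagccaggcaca
Col9a2: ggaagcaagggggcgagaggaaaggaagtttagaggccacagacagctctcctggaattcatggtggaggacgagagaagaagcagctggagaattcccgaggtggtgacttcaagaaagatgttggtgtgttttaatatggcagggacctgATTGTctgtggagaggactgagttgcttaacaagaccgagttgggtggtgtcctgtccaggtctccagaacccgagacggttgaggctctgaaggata
Col11a1: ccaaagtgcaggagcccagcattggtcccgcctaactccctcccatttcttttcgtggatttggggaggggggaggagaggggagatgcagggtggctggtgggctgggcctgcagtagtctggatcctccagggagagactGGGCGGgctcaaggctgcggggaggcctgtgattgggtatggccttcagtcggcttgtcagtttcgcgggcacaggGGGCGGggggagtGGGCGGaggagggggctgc
The Col9a1 window held neither motif, the Col9a2 window held 1 SOX core and no GC box, and the Col11a1 window held 3 GC boxes and no SOX core. Of 33469 rat promoter windows of 250 bases, 30.02% held the SOX core and 30.5% the GC box, so these matches are common letters and are given as a description. The GC content was 46.8%, 52.0% and 65.6% in the order shown.

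In fibrocyte-like cells all 6 collagens were above the background at both ages, and 4 of them were higher at P7 than at P1. Col9a1, a chain of the fibril surface, was the most counted, with 3658 CPM (3632 to 3685) at P1 and 6555 CPM (6502 to 6609) at P7. Col2a1, the core fibril chain, lay at 809.9 CPM (797 to 823) at P1 and 1379 CPM (1355 to 1404) at P7. Col9a2 lay at 1399.9 CPM (1383 to 1416) at P1 and 2961 CPM (2925 to 2997) at P7. These intervals do not overlap between the ages, but they cover counting error only and are narrow in sums of this depth. The share of all genes for which the same holds was not counted. Because reads come from the end of the transcript and capture differs between genes, CPM of different genes do not give the ratio of their chains, and only the same gene is compared below. On the log2 scale, P7 over P1 gave 0.77 for Col2a1 (0.73 to 0.80), 0.84 for Col9a1 (0.83 to 0.86) and 1.08 for Col9a2 (1.06 to 1.11). The third collagen IX chain, Col9a3, went the other way, from 483 CPM (474 to 493) to 335 CPM (323 to 347), with a log2 ratio of -0.53 (-0.59 to -0.47).

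The collagen XI chains moved in opposite directions in fibrocyte-like cells. Col11a1, the first collagen XI chain, lay at 694 CPM (682 to 705) at P1 and 338 CPM (326 to 351) at P7, a log2 ratio of -1.04 (-1.09 to -0.98). Col11a2, the second, lay at 230 CPM (223 to 237) at P1 and 1008 CPM (987 to 1029) at P7, a log2 ratio of 2.13 (2.08 to 2.18). Both were also seen within RC0, which held cells of both ages. There Col11a1 lay at 693 CPM at P1 and 142 CPM at P7, and Col11a2 at 228 CPM and 414 CPM, although only 96 cells of RC0 were from P7. In those cells 5 of the 6 genes were lower, and the 6 together lay at 7254 CPM at P1 and 4272 CPM at P7. Col11a1 there was at the macrophage-like level of 148 CPM. The lower Col11a1 did not extend to RC7, where it lay at 774 CPM at P7. With RC7 counted as fibrocyte-like, the log2 ratio was -0.30 for Col11a1 and 2.03 for Col11a2, so the size of the Col11a1 difference, but not its direction, turned on that cluster. After the libraries were integrated (below), Col11a1 was lower at P7 in the fibrocyte-like cluster. It was higher in IC1 (282 and 755 CPM), an unnamed cluster with Car3 and Crym among its top 10 genes. The direction thus depends on which fibrocyte-related cells are compared.

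**Figure D1:**
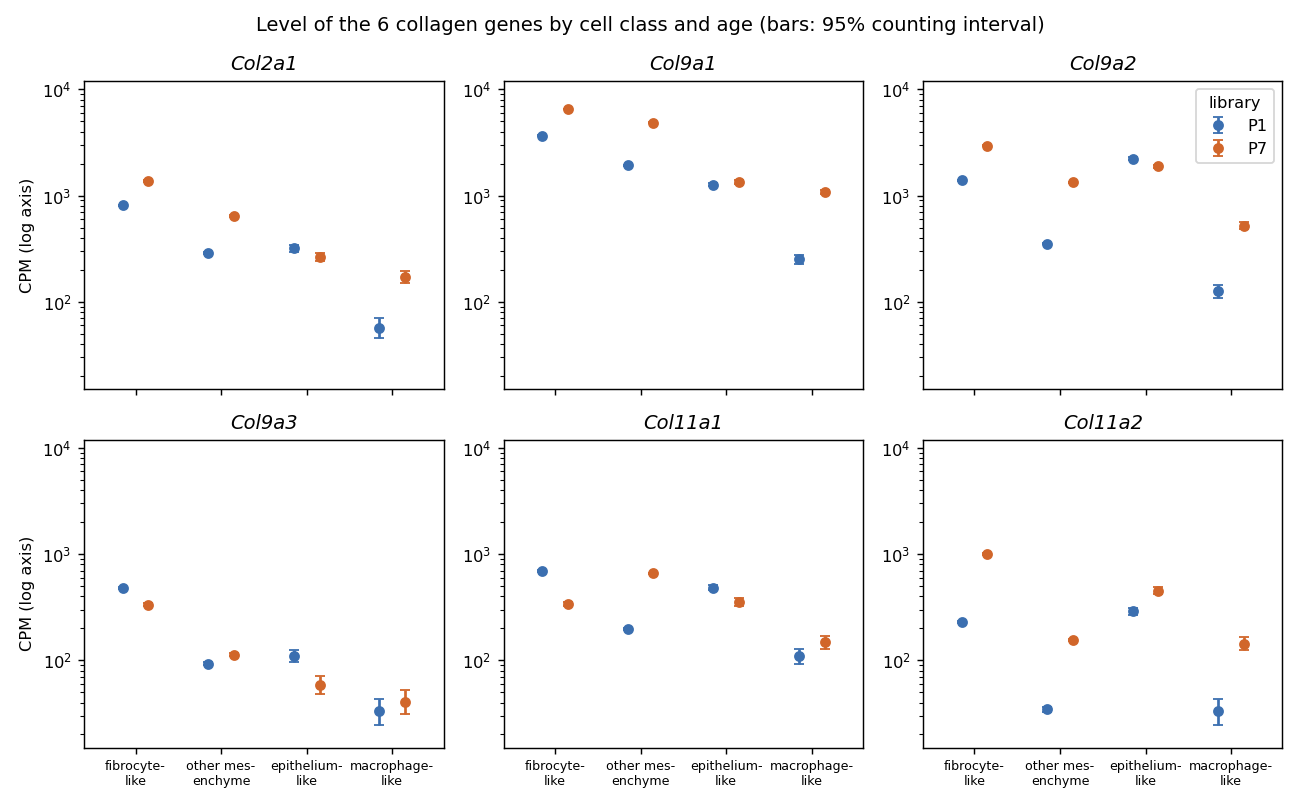
Level of each of the 6 genes in CPM (log axis) in fibrocyte-like cells, other mesenchyme, epithelium-like cells and macrophage-like cells, with P1 in blue, P7 in orange and bars for the 95% counting interval. Col11a1 lay at 694 and 338 CPM in fibrocyte-like cells and at 197 and 659 CPM in other mesenchyme, and the macrophage-like cells show the background, which was higher at P7 for Col9a1 (252 and 1081 CPM).

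Fold differences of at least 2 (log2 ratio of 1 or more after adding 5 CPM to each side, among genes of at least 10 CPM on either side) were counted across all genes to set these values in proportion. In fibrocyte-like cells 2 of the 6 members, Col9a2 and Col11a2, were at least 2-fold higher at P7, where 7.41% of 7769 genes were. Col11a1 was the 1 member at least 2-fold lower, where 4.05% of genes were. The median log2 ratio was 0.80 over the members and 0.13 over all genes counted.

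In other mesenchyme 5 of the 6 members were at least 2-fold higher at P7, where 6.0% of 7855 genes were. With the macrophage-like level subtracted, 4 were. None was at least 2-fold lower, where 2.97% of genes were. The median log2 ratio was 1.52 over the members and 0.12 over all genes counted. Col2a1 lay at 289 CPM at P1 and 642 CPM at P7, with a log2 ratio of 1.15 (1.12 to 1.18). Col9a1 lay at 1932 and 4869 CPM, with a log2 ratio of 1.33 (1.32 to 1.35). Col9a2 lay at 352 and 1336 CPM, with a log2 ratio of 1.92 (1.90 to 1.95). In the class as a whole all 3 were higher at P7 by more than in fibrocyte-like cells. Without the clusters led by the Ccn3 or Aldh1a2 lists (below) this held for Col9a2 only (1.61 against 1.08). Col2a1 (0.78 against 0.77) and Col9a1 (0.84 in both) were then about equal. Col11a1 lay at 197 CPM at P1 and 659 CPM at P7, a log2 ratio of 1.74 (1.70 to 1.78), where it was lower in fibrocyte-like cells. Col11a2 lay at 34.6 CPM (32.8 to 36.4) at P1, within the interval of the macrophage-like background (24.5 to 43.5), and at 156 CPM (152 to 160) at P7, against a background interval of 124 to 165 CPM. Its log2 ratio of 2.17 (2.09 to 2.26) therefore sat beside one of 2.12 (1.67 to 2.60) in macrophage-like cells. In the class as a whole Col11a2 was not distinguishable from the macrophage-like level, although RC4 within it lay at 245 CPM (237 to 254) at P7. The class lay above endothelium-like cells (12.6 CPM at P1 and 58.6 CPM at P7) and pericyte-like cells (10.97 and 43.5 CPM) in Col11a2. Which of these levels is the background of other mesenchyme was not tested, so Col11a2 in it need not be background alone. Col9a3 lay at 93.1 and 113 CPM, with a log2 ratio of 0.27 (0.21 to 0.34).

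Other mesenchyme was not uniform in these genes. The clusters led by the Ccn3 or Aldh1a2 lists (RC2, RC8 and RC22) carried most of the collagens at or below the macrophage-like level. The exception was Col2a1 at P1, at 96.6 CPM against 56.7 CPM. At P1 Col9a1 lay at 215 CPM in them, against 252 CPM in macrophage-like cells, and at P7 at 594 CPM against 1081 CPM. In endothelium-like cells Col9a1 lay at 349 CPM at P1 and 486 CPM at P7, so at P7 these clusters were above that level. After integration IC12, led by the Aldh1a2 list, had Col9a1 at 747 and 2183 CPM. IC9 and IC21, led by the same list, had it at 307 and 254 CPM at P7. The clusters led by the Gpc3, Penk or Sfrp4 lists carried the higher Col9a1, at 3591 CPM at P1 and 6437 CPM at P7. Col11a2 at P1 did not separate the groups, at 34.9 CPM against 34.2 CPM. The Col9a1 level of the clusters led by the Gpc3, Penk or Sfrp4 lists was within a log2 ratio of 0.03 (0.01 to 0.04) of that in fibrocyte-like cells at both ages. The clusters led by Ccn3 or Aldh1a2 made up 2525 of the 5545 cells of the class at P1 and 1228 of 4950 at P7. Without them P7 over P1 on the log2 scale was 0.78 for Col2a1, 0.84 for Col9a1, 1.61 for Col9a2, -0.14 for Col9a3, 1.32 for Col11a1 and 2.25 for Col11a2, and 3 members rather than 5 were at least 2-fold higher. This division of the class was made after the levels had been seen.

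RC4, led by Sfrp4 and Dlx5, had the highest Col9a1 of all clusters, at 8775 CPM at P7. It also had the highest Col11a1, at 1102 CPM, with Col2a1 at 1207 CPM. RC3, led by Penk and B3gat2, had the highest Col9a1 at P1, at 4266 CPM, with Col11a2 at 39.7 CPM. RC5, led by Gpc3 and Vcan, had Col9a1 at 3953 CPM and Col9a3 at 46.7 CPM at P7, the latter close to the background of 40.8 CPM. High Col9a1 thus occurred in clusters whose Col9a3 or Col11a2 was close to the macrophage-like level. In RC7 all 6 genes were high at P7, with Col9a1 at 5831 CPM, Col9a2 at 2958 CPM, Col2a1 at 1124 CPM, Col11a2 at 875 CPM, Col11a1 at 774 CPM and Col9a3 at 399 CPM. Ordered by level over the clusters of at least 50 cells, 6 of 14 neighbouring pairs for Col9a1 at P1 and 5 of 17 at P7 had overlapping intervals, while for Col11a2 10 of 14 and 12 of 17 did. For each gene at each age the interval of the highest cluster lay above that of the second. Outside these classes RC16, led by glial genes with 437 cells at P7, and the dividing RC9 also held UMIs of the collagens. Col9a1 lay at 3152 CPM in RC16 at P7 and at 1811 CPM in RC9 at P1. In RC1, also led by glial genes, Col9a1 lay at 204 CPM at P7. The median cell held 11672 UMIs in RC16 and 4468 in RC1, and Otor lay at 6567 and 382 CPM in them at P7. Whether droplets of RC16 held RNA of more than 1 cell type was not tested.

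**Figure D2:**
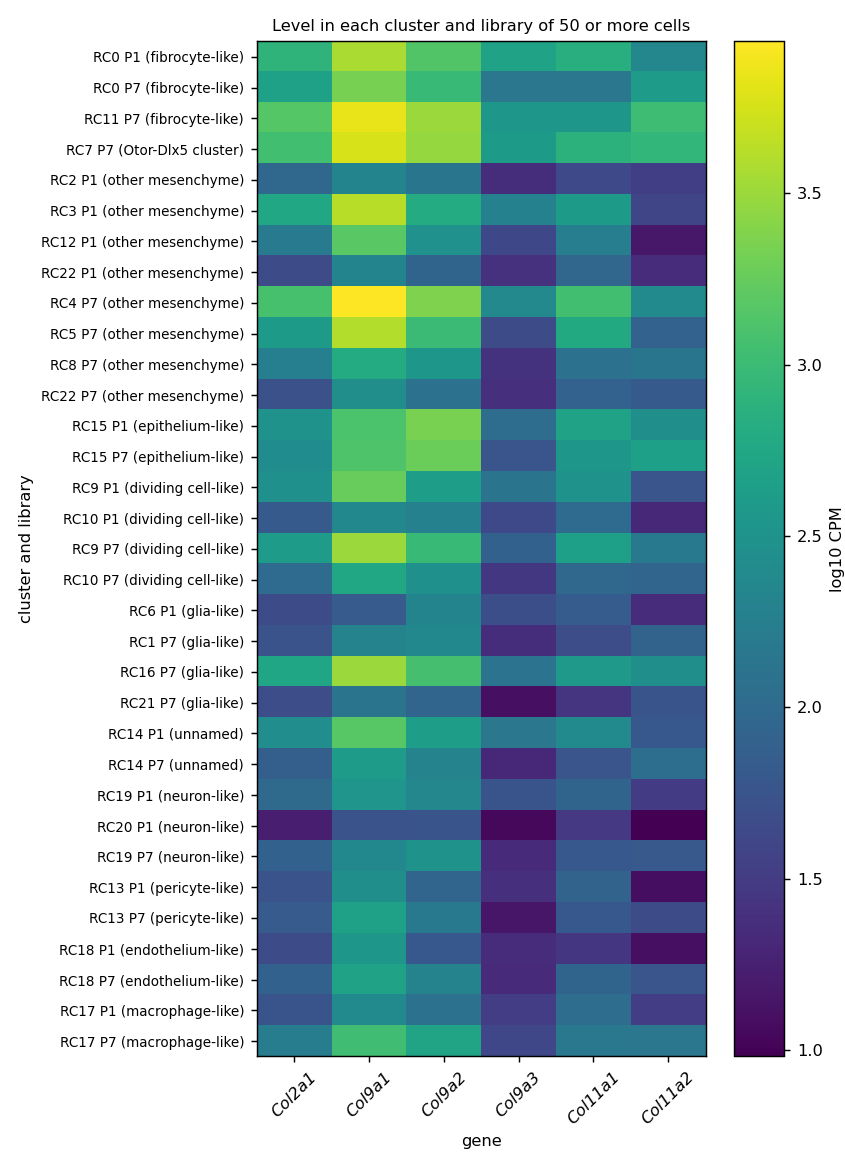
Level of the 6 genes (log10 CPM, colour) in each cluster and library of at least 50 cells, with the class of the cluster in brackets. The rows of RC4, RC11 and RC7 at P7 are bright for Col9a1 (8775, 6920 and 5831 CPM), and RC2 at P1, a mesenchymal cluster led by Ccn3, is dark for all 6, with Col9a1 at 209 CPM.

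In the epithelium-like class no member differed 2-fold between the ages as counted, and Col9a2 was the most counted. Col9a2 lay at 2230.1 CPM (2169 to 2292) at P1 and 1894 CPM (1831 to 1959) at P7. Col9a1 lay at 1267 CPM (1221 to 1314) and 1333 CPM (1280 to 1388), and Col9a3 at 110 CPM (96.4 to 124) and 58.6 CPM (47.9 to 70.9). Col2a1 lay at 319 CPM (296 to 343) and 265 CPM (242 to 290). At P1 RC15 had the highest Col9a2 and Col11a2 of all clusters, the latter at 289 CPM (267 to 311) with Col11a1 at 483 CPM (455 to 512). At P7 Col11a2 lay at 454 CPM (423 to 486) and Col11a1 at 353 CPM (326 to 382). No member was 2-fold higher or lower at P7, where 9.10% and 4.51% of 8244 genes were, and the median log2 ratio was -0.25 over the members and 0.14 over all genes counted. P7 over P1 on the log2 scale was 0.65 (0.50 to 0.80) for Col11a2, -0.45 (-0.59 to -0.31) for Col11a1, -0.90 (-1.25 to -0.57) for Col9a3 and 0.07 (-0.01 to 0.15) for Col9a1. When every cell counted equally (the mean over cells of each cell's CPM), the ratio was 0.23 for Col2a1, 0.17 for Col9a2 and 0.02 for Col11a1, so the direction of these 3 genes turned on how the cells were weighted. At P7 Col9a1 of this class (1333 CPM) stood close to the background (1081 CPM), Col2a1 lay at 265 against 172 CPM, and the intervals of Col9a3 overlapped (58.6 against 40.8 CPM). Col9a2 (1894 CPM) was well above it (521 CPM). With the macrophage-like level subtracted, P7 over P1 on the log2 scale was -1.49 for Col2a1, -2.01 for Col9a1 and -2.11 for Col9a3, so 3 members were then at least 2-fold lower. These values rest on the choice of macrophage-like cells, since Col9a1 at P7 lay at 486 CPM in endothelium-like cells.

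**Figure D3:**
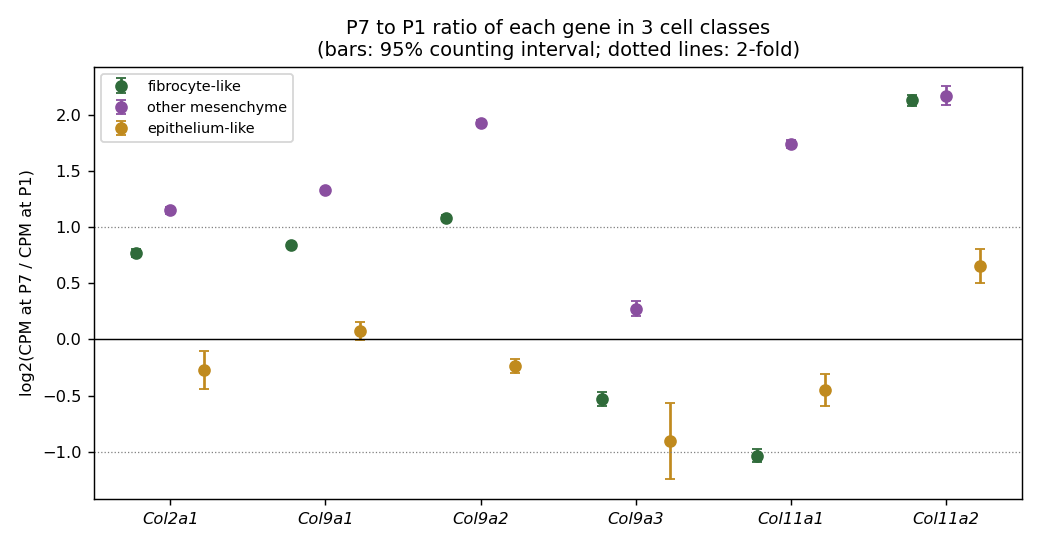
Log2 ratio of the level at P7 to that at P1 for each gene in fibrocyte-like cells (green), other mesenchyme (purple) and epithelium-like cells (ochre), with bars for the 95% counting interval and dotted lines at a 2-fold difference. Col11a1 lay at -1.04 in fibrocyte-like cells and 1.74 in other mesenchyme, while Col11a2 lay at 2.13 in fibrocyte-like and 0.65 in epithelium-like cells, and its 2.17 in other mesenchyme sat beside 2.12 in macrophage-like cells.

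Within a library fibrocyte-like cells carried more of the collagens than other mesenchyme, with exceptions at P7. At P1 5 members, all but Col9a1, were at least 2-fold higher in fibrocyte-like cells, where 1.51% of 7293 genes were, and none lower, where 2.91% were. The log2 ratio was 1.49 (1.45 to 1.52) for Col2a1, 0.92 (0.91 to 0.94) for Col9a1, 1.99 (1.96 to 2.02) for Col9a2, 2.38 (2.32 to 2.43) for Col9a3 and 1.81 (1.78 to 1.85) for Col11a1. For Col11a2 it was 2.74 as counted. The level in other mesenchyme (34.6 CPM) lay within the macrophage-like interval (24.5 to 43.5 CPM). The ratio with the macrophage-like level subtracted, 6.95, therefore rests on a remainder within counting error and gives no reliable size. Without the clusters led by the Ccn3 or Aldh1a2 lists 4 members were at least 2-fold higher at P1, with Col2a1 at 0.77 and Col9a1 at 0.03. At P7 4 members were at least 2-fold higher, where 3.01% of 7777 genes were, and none lower, where 5.40% were. Col9a1 stood at a log2 ratio of 0.43 (0.42 to 0.44). Col11a1 was then lower in fibrocyte-like cells, at -0.96 (-1.02 to -0.91). With RC7 counted as other mesenchyme, 1 member rather than 4 was at least 2-fold higher at P7 and Col11a1 was at least 2-fold lower.

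Against the epithelium-like class, 3 members (Col2a1, Col9a1 and Col9a3) were at least 2-fold higher in fibrocyte-like cells at P1, where 6.70% of 7880 genes were, and none lower, where 10.6% were. At P7 4 members were, with Col11a2 added, where 6.40% of 8331 genes were, and none lower, where 12.9% were. Col9a2 was lower in fibrocyte-like cells at P1, with a log2 ratio of -0.67 (-0.71 to -0.63), and higher at P7, at 0.64 (0.59 to 0.70). Col11a1 was higher at P1, at 0.52 (0.43 to 0.61), and at P7 its interval held 0 (-0.06, from -0.19 to 0.06). Col11a2 stood at -0.33 (-0.44 to -0.21) at P1, a sign that changed in 3 of 9 alternatives, and at 1.15 (1.05 to 1.26) at P7.

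For Col2a1, Col9a3 and Col11a1 the order of other mesenchyme and the epithelium-like class differed between the ages. At P1 no member was at least 2-fold higher in other mesenchyme, where 8.25% of 7971 genes were, and 3 (Col9a2, Col11a1 and Col11a2) were lower, where 9.56% were. At P7 2 members (Col2a1 and Col9a1) were higher, where 8.57% of 8425 genes were, and Col11a2 was lower, where 11.5% were. The log2 ratio of other mesenchyme to epithelium-like cells for Col11a1 was -1.29 (-1.38 to -1.20) at P1 and 0.90 (0.79 to 1.01) at P7. For Col9a3 it was -0.24 (-0.42 to -0.05) and 0.94 (0.66 to 1.24). For Col2a1 it was -0.14 (-0.25 to -0.03) and 1.28 (1.14 to 1.41), but the clusters led by the Gpc3, Penk or Sfrp4 lists, at 475 CPM at P1, were above the epithelium-like 319 CPM at that age already. Taken alone, those clusters were above the epithelium-like class in Col9a3 at P1 too, and below it in Col11a1.

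The balance of the collagen IX chains separated the epithelium from the mesenchyme. Of the UMIs on the 3 collagen IX genes, Col9a2 took 61.8% (60.8 to 62.9) in epithelium-like cells at P1, 25.3% (25.01 to 25.5) in fibrocyte-like cells and 14.8% (14.6 to 15.02) in other mesenchyme. At P7 its share was 57.6% (56.4 to 58.9), 30.1% (29.8 to 30.4) and 21.1% (21.0 to 21.3). Among these 3 classes the epithelium-like class thus had the highest Col9a2 share at both ages. Mesenchymal clusters low in these collagens could differ from their class. After integration IC21, led by the Aldh1a2 list with 55 cells at each age, had a Col9a2 share of 65.4% at P1 and 46.0% at P7. The epithelium-like IC15 had 61.9% and 57.5%. Col9a1 lay at 56.1 CPM in IC21 at P1, below the macrophage-like level. Glia-like cells at P1, with Col9a2 at 206 CPM against a background of 126 CPM, had a share of 63.6% (61.6 to 65.5). In macrophage-like cells the Col9a2 share was 30.7% at P1 and 31.7% at P7. With the macrophage-like level subtracted, the epithelium-like share of Col9a2 was 65.8% at P1 and 83.6% at P7, so its decline between the ages turned to a gain.

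Col9a3 took a smaller share at P7 in every class compared. In fibrocyte-like cells its share of collagen IX was 8.72% (8.56 to 8.89) at P1 and 3.40% (3.28 to 3.52) at P7. In other mesenchyme it was 3.91% (3.80 to 4.04) and 1.78% (1.73 to 1.84), and in epithelium-like cells 3.04% (2.68 to 3.43) and 1.78% (1.46 to 2.15). The same held in macrophage-like cells, at 8.03% (6.02 to 10.4) and 2.48% (1.89 to 3.21). After the libraries were integrated by canonical correlation, which placed cells of both ages in shared clusters, the share was lower at P7 in 20 of 20 clusters with at least 50 cells of each age, those that carried only background included.

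The balance of collagen XI shifted from Col11a1 to Col11a2, most in fibrocyte-like cells. Of the UMIs on the 2 genes, Col11a1 took 75.1% (74.5 to 75.7) at P1 and 25.1% (24.4 to 25.9) at P7 in fibrocyte-like cells. In other mesenchyme it took 85.1% (84.4 to 85.8) and 80.9% (80.4 to 81.3), and in epithelium-like cells 62.6% (60.3 to 64.9) and 43.8% (41.2 to 46.4). In macrophage-like cells it took 76.7% (70.5 to 82.2) and 50.9% (45.9 to 55.8). Its share was lower at P7 in all 20 integrated clusters, and the part of the background in those that carry little collagen was not tested. It was 79.5% at P1 and 26.1% at P7 in the fibrocyte-like IC7, but 68.9% and 55.6% in the unnamed IC1. In the glia-like IC6 it was 77.9% and 32.1%, so a wide difference was not particular to fibrocyte-like cells. With the macrophage-like level subtracted the share was 74.8% and 18.0% in fibrocyte-like cells, 98.2% and 97.6% in other mesenchyme, and 59.4% and 39.8% in epithelium-like cells. The decline in fibrocyte-like and epithelium-like cells thus remained after subtraction. In other mesenchyme Col11a2 was not distinguishable from the macrophage-like level, so the subtracted share there cannot show whether the small decline was background. Without the clusters led by the Ccn3 or Aldh1a2 lists, and without subtraction, the share in other mesenchyme was 90.8% at P1 and 83.8% at P7. RC7 at P7 stood between, with a Col11a1 share of 46.9% (46.2 to 47.7). With RC7 counted as fibrocyte-like, the share in fibrocyte-like cells at P7 was 37.4%. The parts taken by each collagen differed less between the ages, as collagen IX took 76.2% of the UMIs of the 6 genes in fibrocyte-like cells at P1 and 78.3% at P7, and Col2a1 11.1% and 10.96%.

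**Figure D4:**
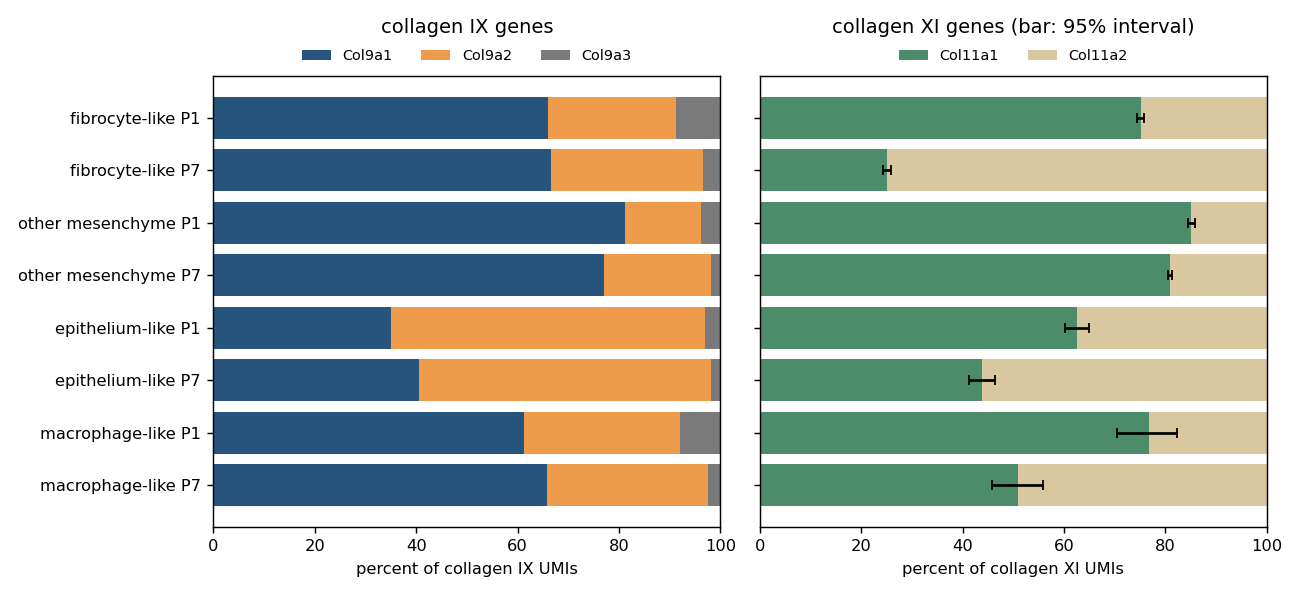
Left, the percent of collagen IX UMIs on Col9a1 (blue), Col9a2 (orange) and Col9a3 (grey), and right, the percent of collagen XI UMIs on Col11a1 (green) and Col11a2 (sand), by class and age, with the bar on the right for the 95% interval. Of the classes drawn, the Col9a2 part was widest in epithelium-like cells (61.8% at P1), and the Col11a1 part was 75.1% at P1 and 25.1% at P7 in fibrocyte-like cells.

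In the shared clusters of the integrated libraries, the ages could be set side by side within a cluster. Of 8 such clusters named fibrocyte-like or other mesenchyme, Col9a1, Col9a2 and Col11a2 were higher at P7 in all 8, Col2a1 in 7 with 1 interval that held 0, and Col11a1 in 7. Among all 20 shared clusters Col11a2 was higher in 20 and Col9a1 in 19, macrophage-like cells included (Col9a1 at 263 and 1139 CPM), and 3 of the 8 (IC3, IC9 and IC21) lay below that Col9a1 level at P7. The exception for Col11a1 was the fibrocyte-like cluster (IC7, 933 cells at P1, against 2996 in the class built without integration, and 693 at P7), where it lay at 1299.6 CPM at P1 and 377 CPM at P7, a log2 ratio of -1.79 (-1.85 to -1.72). In the clusters IC1 and IC5, which stayed unnamed, Col11a1 was higher at P7. IC1, with 1484 cells at P1, had Car3 and Crym of the fibrocyte list among its top 10 genes. Col11a1 lay at 282 and 755 CPM in IC1 and at 515 and 650 CPM in IC5. Col9a3 was higher in 3 of the 8, lower in 3 and with an interval that held 0 in 2.

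The chains were also followed in single cells, each thinned to 2000 UMIs so that depth was equal. In fibrocyte-like cells 49.7% (47.9 to 51.5) of 2954 cells at P1 and 42.9% (39.7 to 46.2) of 906 at P7 held a UMI of all 3 collagen IX genes, against 2.26% (0.619 to 5.68) and 3.68% (1.36 to 7.84) of macrophage-like cells. The cells left out for fewer UMIs were 42 at each age. Thinned to 4000 UMIs, the share was 69.3% at P1 and 69.7% at P7, so the order of the ages did not hold for collagen IX. The median depth before thinning was 5980 UMIs at P1 and 9126 at P7 in fibrocyte-like cells, and 7219 and 6969 in macrophage-like cells. Before thinning, Col9a1 was found in 97.7% and 99.9% of fibrocyte-like cells and in 27.0% and 64.0% of macrophage-like cells. A share of cells with Col9a1 at P7 is therefore read only against that background.

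Fibrocyte-like cells with Col11a1 and no Col11a2 were 31.7% (30.04 to 33.4) of the class at P1 and 7.51% (5.88 to 9.42) at P7. Those with Col11a2 and no Col11a1 were 12.1% (10.96 to 13.4) and 44.8% (41.5 to 48.1), and those with both 20.4% (19.0 to 21.9) and 34.8% (31.7 to 38.0). Col11a2 was thus found in a larger part of the cells at P7. Cells with both chains were also more frequent, so these shares do not show that the lower Col11a1 sum was spread over many cells. Before thinning, Col11a1 was found in 75.6% of fibrocyte-like cells at P1 and 78.2% at P7, at unequal depth. In other mesenchyme, cells with Col11a1 alone made up 23.9% (22.8 to 25.1) at P1 and 42.8% (41.4 to 44.3) at P7, and cells with Col11a2 alone 4.004% (3.50 to 4.56) and 6.398% (5.71 to 7.14), the latter no more than in macrophage-like cells at P7 (9.82%). Cells with Col9a2 and no Col9a1 were 26.7% (21.3 to 32.8) of 243 epithelium-like cells at P1 and 24.8% (17.9 to 32.8) of 141 at P7, against 3.25% and 0.993% of fibrocyte-like cells. The epithelium-like cells left out were 27 at P1 and 72 at P7, a larger part at P7.

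**Figure D5:**
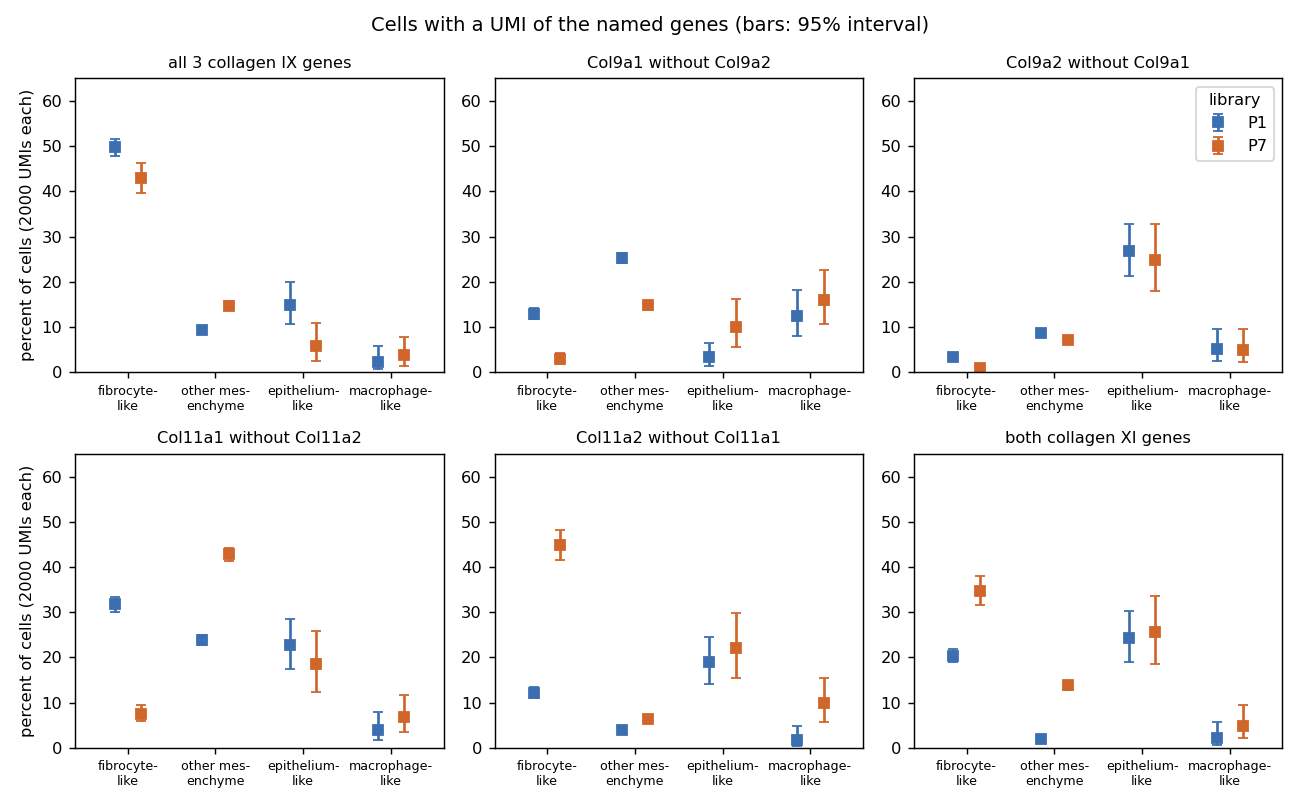
Percent of cells, each thinned to 2000 UMIs, with a UMI of the genes named above each panel, at P1 (blue) and P7 (orange), with bars for the 95% interval. Cells with Col11a2 and no Col11a1 made up 12.1% of fibrocyte-like cells at P1 and 44.8% at P7. Of the classes drawn, cells with Col9a2 and no Col9a1 were most frequent in the epithelium-like class (26.7% and 24.8%).

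The genes most like each member were sought over the sums of each cluster and library with at least 50 cells, 33 in all, which share 2 libraries and their background. Pearson's r of log2(CPM + 5) is given as a description, among the genes of at least 50 CPM in at least 1 sum. For Col2a1 the nearest were Col9a1 (0.96), Pcsk6, a proprotein convertase (0.95), Matn4, a matrilin (0.95), Col9a2 (0.93) and Fzd9, a Wnt receptor (0.91). For Col9a1 they were Col2a1 (0.96), Matn4 (0.94), Pcsk6 (0.93), Sulf1 (0.91) and Ccn4 (0.91). For Col9a2 they were Col2a1 (0.93), Fzd9 (0.92), Pcsk6 (0.90), Col11a1 (0.89) and Sox9 (0.88), and for Col9a3 Col2a1 (0.91), Matn4 (0.89), Pcsk6 (0.88), Crym (0.86) and Hif1a (0.86). For Col11a1 they were Pcsk6 (0.91), Col2a1 (0.91), Col9a1 (0.90), Col9a2 (0.89) and Matn4 (0.89). Col11a2 stood apart, with Col9a2 (0.87), Hddc3 (0.86), Cnmd (0.85), Otos (0.84) and Tgif1 (0.83), and its r with Col11a1 was 0.65.

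Genes that make, cut, bind or read these fibrils were followed in 9 lists with 81 genes, of which 77 were in the files. Their counts at P7 over P1 are read against the shares of all genes at least 2-fold higher, which were 7.41% in fibrocyte-like cells, 6.0% in other mesenchyme and 9.10% in epithelium-like cells, and the medians over all genes, which were 0.13, 0.12 and 0.14. With few genes a list, a count of 1 or 2 shows nothing particular to the list. The listed genes were not set against the macrophage-like level, so how much of a level was background was not tested. This bears most on genes whose level in epithelium-like cells was far below that in other mesenchyme. Of the transcription factors Sox9, Sox5 and Sox6, known activators of these collagen genes, 2 could be counted in fibrocyte-like cells and 1, Sox9, was at least 2-fold higher at P7. Sox9 lay at 125 CPM at P1 and 385 CPM at P7 in fibrocyte-like cells, at 76.1 and 215 CPM in other mesenchyme and at 173 and 248 CPM in epithelium-like cells. Sox5 lay at 32.7 and 16.1 CPM in fibrocyte-like cells. Sox9 was therefore higher at P7 in all 3 classes by these sums, but 2-fold only in the first 2.

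Of 13 genes for the hydroxylation, glycosylation and folding of chains counted in fibrocyte-like cells, 3 were at least 2-fold higher at P7 and none lower, with a median log2 ratio of 0.61. The same 3 were higher in other mesenchyme, of 13 counted, and in epithelium-like cells, of 14 counted. These were P3h3, a partner of lysyl hydroxylase, and the lysyl hydroxylases Plod1 and Plod2. P3h3 lay at 44.9 CPM at P1 and 241 CPM at P7 in fibrocyte-like cells, at 50.9 and 284 CPM in other mesenchyme, and at 20.1 and 121 CPM in epithelium-like cells. Serpinh1, the collagen chaperone, lay at 697 and 907 CPM in fibrocyte-like cells, a log2 ratio of 0.38.

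Of the genes for propeptide cleavage and cross-linking, 1 of 6 counted was at least 2-fold higher at P7 in fibrocyte-like cells (Adamts14, a propeptide protease, at 3.54 and 16.5 CPM) and none lower. In other mesenchyme 1 of 6 was (Bmp1, which cuts C-terminal propeptides, at 40.8 and 93.2 CPM), and in epithelium-like cells 2 of 5 (Lox and Pcolce). Within a library, Lox, the cross-linking oxidase, was lower in fibrocyte-like cells than in other mesenchyme at both ages, with 21.5 against 173 CPM at P1 and 15.4 against 135 CPM at P7. At P7 4 of 7 genes of this list were at least 2-fold lower in fibrocyte-like cells, where 5.40% of all genes counted were, and 1 was higher.

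Of the other fibrillar chains, 1 of 6 counted was at least 2-fold higher at P7 in fibrocyte-like cells (Col5a3) and 1 lower (Col5a1, a chain of collagen V, at 24.2 and 4.17 CPM). In epithelium-like cells 2 of 3 were higher (Col3a1 and Col5a3), with Col3a1 at 76.8 and 223 CPM, far below its level in other mesenchyme. In other mesenchyme 2 of 6 were higher and 1 lower, with Col3a1 at 930 and 2518 CPM and Col1a1, the main chain of collagen I, at 379 and 132 CPM. Compared with other mesenchyme, Col1a1 and Col3a1 were low in fibrocyte-like cells at both ages, at 13.5 and 218 CPM at P1. Of the other fibril-associated chains 1 of 3 was higher at P7 in fibrocyte-like cells, Col12a1, at 50.3 and 185 CPM. None of 3 passed the 2-fold line in other mesenchyme, and in epithelium-like cells Col12a1 was higher and Col14a1 lower, at 83.8 and 11.7 CPM.

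Of 9 cartilage fibril-binding matrix proteins counted in fibrocyte-like cells, none was at least 2-fold higher at P7 and 1, Matn2, was lower. Matn4 lay at 1099.8 CPM at P1 and 1551 CPM at P7 in them, and at 212 and 667 CPM in other mesenchyme, where it and Dcn were the 2 of 7 that were higher. In epithelium-like cells Dcn and Epyc were higher, and Epyc, a small leucine-rich proteoglycan, lay at 1130.3 and 3113 CPM there. Dcn lay at 50.6 and 288 CPM in epithelium-like cells, against 924 and 3387 CPM in other mesenchyme, and the part of background in it was not tested. Collagen receptors numbered 0 of 3 past 2-fold in fibrocyte-like cells, 1 of 5 in other mesenchyme (Ddr1) and 2 of 3 in epithelium-like cells (Ddr1 and Ddr2). Collagen-cutting proteases numbered 0 of 3 in each class.

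Of the tectorial membrane glycoproteins, 5 were counted in the epithelium-like class, with a median log2 ratio of 0.21. Of these, 1 was at least 2-fold higher at P7, Tectb, which encodes beta-tectorin, at 394 and 1538 CPM, where 9.10% of all genes were. Tecta, which encodes alpha-tectorin, lay at 608 and 660 CPM. Tectb also passed the line in fibrocyte-like cells (2.73 and 15.7 CPM) and other mesenchyme (1.88 and 17.1 CPM), at levels far below those of the epithelium.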

How the data were processed

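The deposited counts are UMIs per gene and barcode that the authors made with Cell Ranger 3.1.0 on the rat build rn6, without normalization. The submitters' notes also name bcl2fastq and Seurat 3.1.1. No step by the authors against doublets or free RNA is stated in the sources used here. The limits for keeping a cell were over 500 but below 5000 genes, 500 UMIs or more, and mitochondrial UMIs below 25%. Clustering used Seurat 5.3.0 (R 4.3.3) on the merged libraries, on 2000 variable genes less the members and all listed genes (1867 left), 10 principal components and a resolution of 0.8. Scrublet, run from scanpy 1.11.5, marked doublets, which were removed in an alternative only.

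A cluster was named for the list with the highest mean log2 ratio to other cells, of at least 1, with at least 3 markers found in 10% of its cells. It stayed unnamed where its top 10 genes by fold held more markers of another class, which left RC14 unnamed. Counts were summed per class and library and scaled to a total of 1000000 (CPM). Intervals are exact Poisson for a level, Clopper-Pearson for a share and conditional binomial for a ratio, at 95%. A ratio printed with its interval has no pseudocount, and 5 CPM were added only to count 2-fold differences and for log2 ratios of listed genes. The depth of a class, from 1396491 UMIs in macrophage-like cells to 42480788 in other mesenchyme, sets the width of its intervals. In simulated class sums with 200 genes changed by a log2 ratio of 1.5, the 2-fold rule found 98.0% in fibrocyte-like cells, 99.0% in other mesenchyme and 88.0% in epithelium-like cells, and of genes of at least 50 CPM 100%, 100% and 98.9%. The simulation held counting error only, without differences between libraries, in subtypes or in background, so it checks the arithmetic of the rule and not the age differences. The requirement of the simulation was set on genes of at least 50 CPM after the first run, since the pseudocount draws lower genes towards the 2-fold line.

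The members and lists were chosen with earlier results of these data known, and keeping RC7 apart, dividing other mesenchyme and the rule on the top 10 genes were decided after the clusters had been seen. The genes named are the 6 members, the largest or defining examples of each list and the 5 genes most like each member. Of the lists, Dct, Pecam1, Col21a1, Crtap, Mia3 and Pcolce2 had no row under that symbol.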

Additional observations from a re-analysis of the deposited data

Results flagged for a closer look

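With 1 library per age, none of the differences here was tested; each is a pair of classes in which a gene differed between P7 and P1 in opposite directions, with both intervals clear of 0. Col11a1 gave the widest gap, with log2 ratios of -1.04 in fibrocyte-like cells and 1.74 in other mesenchyme, a difference of -2.78. Between other mesenchyme and epithelium-like cells the Col11a1 ratios differed by 2.19. The Col2a1 ratio was higher than that of epithelium-like cells by 1.04 in fibrocyte-like cells and by 1.42 in other mesenchyme. The Col9a2 ratio was higher than that of epithelium-like cells by 1.32 in fibrocyte-like cells and by 2.16 in other mesenchyme. The Col9a3 ratio differed by -0.80 between fibrocyte-like cells and other mesenchyme, and by 1.18 between other mesenchyme and epithelium-like cells. For Col2a1, Col9a2 and Col11a1 the epithelium-like ratio changed sign when every cell counted equally, and for Col9a3 the ratio in other mesenchyme changed sign without the clusters led by the Ccn3 or Aldh1a2 lists, so the opposite directions of these pairs turn on those choices. The Col11a1 gap between fibrocyte-like cells and other mesenchyme kept its direction in each alternative run.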

How the results depend on the processing

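No paired analysis was possible because each age has 1 library. Log2 ratios whose interval lay clear of 0 changed sign as follows. Removing doublets gave -0.22 for Col9a3 in other mesenchyme (P7 to P1), and leaving out the clusters led by the Ccn3 or Aldh1a2 lists gave -0.14. Counting each cell equally gave, in epithelium-like cells, 0.23 for Col2a1, 0.17 for Col9a2 and 0.024 for Col11a1. Col11a2 in fibrocyte-like against epithelium-like cells at P1 was 0.19 with integrated libraries, 0.12 with 30 principal components and 0.0500 with a mitochondrial limit of 10%. Ratios whose interval held 0 also took both signs, with Col9a1 (P7 to P1) in epithelium-like cells as low as -0.04 and Col11a1 in fibrocyte-like against epithelium-like cells at P7 as high as 0.07.

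Members at least 2-fold higher at P7 in fibrocyte-like cells were 1, not 2, with integrated libraries, 30 principal components, doublets removed, scaling without mitochondrial, ribosomal protein and haemoglobin genes, cells counted equally, or the macrophage-like level subtracted. The 1 lower member was lost (0) with all variable genes kept, cells counted equally, or RC7 counted as fibrocyte-like. In other mesenchyme the count was 3 without the Ccn3- or Aldh1a2-led clusters. In epithelium-like cells 1 member was at least 2-fold higher with cells counted equally, and 3 were lower with the macrophage-like level subtracted. Members at least 2-fold higher in fibrocyte-like cells than in other mesenchyme at P7 were 1 at a resolution of 0.4, with the mitochondrial limit of 10%, or with RC7 counted as other mesenchyme, and 2 with 30 principal components or without the Ccn3- or Aldh1a2-led clusters. The count at least 2-fold lower was 1 with RC7 as other mesenchyme, without those clusters, or with the macrophage-like level subtracted. The Col9a2 share was higher at P7 in 1 class, not 2, at a resolution of 1.2 or with 30 principal components, and in 3 with the macrophage-like level subtracted. The Col11a1 share was lower at P7 in all 3 classes in every alternative, as was that of Col9a3, and of the 3 classes the epithelium-like had the highest Col9a2 share in each. The alternatives on RC7, on the mesenchyme clusters and on the macrophage-like level were chosen after seeing the data. The cause of these changes was not tested.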
